A study of Mus musculus with 25 samples.

Results

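The 10 genes described here encode glutathione transferases of several classes, namely Gstp1, Gstp2, Gstm1, Gstm5, Gstm7, Gsta4, Gsto1, Gstt1, Gstz1 and Gstk1, out of 24421 genes listed in the tables. The set was chosen by a measured value: Gstp1 was higher in hypothalamus of mice whose dams ate a hypercaloric diet, in both sexes of offspring weaned to that same diet, and the other 9 genes were added to see whether the family moved with it. Values of the HCD-weaned comparisons are therefore given as a description. Their p-values and counts of members are printed, but nothing about the family is read from them. Differences that involve these comparisons were tested only for members other than Gstp1. All 10 symbols were found in all 4 tables.

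Poly(A) RNA of hypothalamus, which governs appetite, energy balance and pituitary hormones, was sequenced in 25 wild-type C57BL/6J mice aged 3 months. Dams ate a sucrose-rich hypercaloric diet (HCD) with 52% fat or a regular diet (RD) from 1 month before mating and on through pregnancy and lactation, and the pups were weaned to HCD or RD. The groups are named by dam diet and then weaning diet: HCD-HCD males (n = 3) against RD-HCD males (n = 3), HCD-HCD females (n = 3) against RD-HCD females (n = 3), HCD-RD males (n = 3) against RD-RD males (n = 4 in the labels), and HCD-RD females (n = 3) against RD-RD females (n = 3). The labels do not say which samples share a litter, so the p-values measure only the spread between these samples.

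Every value below comes from the authors' deposited tables of these 4 comparisons, which share no samples. A table gives each gene a mean normalized count over its libraries, a log2 fold change with a standard error (SE), a p-value and an adjusted p. A positive log2 fold change was read as higher in the offspring of HCD dams. For the RD-weaned tables that direction was assumed, since no source names their control, and if it is wrong all signs of such a table turn together. The values of single libraries were not used here, because their column names match no sample label, so neither the level in a single mouse nor a group mean can be given. Genes are named as called where the authors' deposited DESeq table gives an adjusted p under 0.05, and intervals are 95% intervals from the SE.

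Glutathione transferases join the tripeptide glutathione to reactive or foreign compounds, which makes these compounds more soluble and ready for export. The cytosolic classes are named by Greek letters, and their members differ in the compounds they accept. In rodent brain, the pi class is a widely used marker of mature oligodendrocytes, the myelin-forming cells, while mu class enzymes are prominent in astrocytes. Many genes of the family carry antioxidant response elements near their start, which are bound by the factor Nrf2.

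Gstp1 and Gstp2 are neighbouring pi class genes on chromosome 19 of GRCm38, the assembly that mm10 stands for, at chr19:4035407-4037985 and chr19:4040285-4046023, both on the minus strand. Their transcripts in GENCODE are 821 bases (Gstp1) and 797 bases (Gstp2) long and are 90.4% identical. Of all 50-base stretches of the Gstp1 transcript, 62.3% also occur in Gstp2, and 45.6% occur in the pseudogene Gstp-ps. Of those of Gstp2, 64.3% occur in Gstp1. Reads from these stretches cannot be told apart, so the values of the pair depend on how shared reads were counted, which is not given in the sources used here. In Gstm1, 23.1% of the 50-base stretches occur in other genes, chiefly the pseudogene Gstm2-ps1 (17.3%) and Gstm3. No such stretch of the other 7 members occurs in the transcript of another gene.

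The promoters of the pi class pair are shown because the pair shares so much sequence, yet its deposited levels and fold changes were unlike. Whether Gstp1 and Gstp2 differ in either was not tested. The promoter of Gstm5 is shown because it holds the same letters in a member of another class. Each is the 250 bases before the RefSeq start in GRCm38.p6, read along the gene's own strand, at chr19:4037913-4038162 (minus strand) for Gstp1, chr19:4042222-4042471 (minus strand) for Gstp2 and chr3:107895604-107895853 (plus strand) for Gstm5. GENCODE places the start of Gstp1 and that of Gstm5 inside these windows. Capitals mark matches to TGACTCA, the letters bound by AP-1 factors, or to TGACNNNGC, the core of the antioxidant response element, searched on both strands.
Gstp1: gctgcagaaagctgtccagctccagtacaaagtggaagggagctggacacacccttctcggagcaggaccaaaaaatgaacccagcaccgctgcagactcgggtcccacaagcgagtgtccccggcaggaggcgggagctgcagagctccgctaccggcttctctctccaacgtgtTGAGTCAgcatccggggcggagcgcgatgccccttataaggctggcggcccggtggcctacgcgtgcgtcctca
Gstp2: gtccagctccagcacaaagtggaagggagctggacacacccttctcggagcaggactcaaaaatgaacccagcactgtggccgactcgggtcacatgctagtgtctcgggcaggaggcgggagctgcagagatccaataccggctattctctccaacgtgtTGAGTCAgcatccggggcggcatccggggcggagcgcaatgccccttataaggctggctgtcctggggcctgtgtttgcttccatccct
Gstm5: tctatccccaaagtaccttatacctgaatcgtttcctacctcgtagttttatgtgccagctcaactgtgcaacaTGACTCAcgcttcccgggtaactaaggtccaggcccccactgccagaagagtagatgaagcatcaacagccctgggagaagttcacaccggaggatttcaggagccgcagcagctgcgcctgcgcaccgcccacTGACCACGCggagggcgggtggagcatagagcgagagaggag
RefSeq promoter windows were matched for 9 of the 10 members, all but Gsta4. TGACTCA occurs in the windows of 3 of these 9 genes. It begins at position -74 from the RefSeq start in Gstp1 and at -89 in Gstp2, where it lies on the opposite strand and reads TGAGTCA, and at -176 in Gstm5. It occurs in 5.20% of 32851 promoter windows of 300 bases. TGACNNNGC occurs in the windows of Gstm5 (at -42, TGACCACGC) and Gstm7 (at -129, TGACAAAGC), and in 12.4% of all windows. Both motifs begin with the same letters and can overlap, but the matches printed here do not. The upstream stretches of Gstp1 and Gstp2 are 78.1% identical. A match is a description of the letters, and factor binding was not measured here. Other forms of these sites were not searched, so a window with no match is not shown to lack one.

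The family spans a wide range of levels in hypothalamus, led by the mu class. Levels were set between genes as the mean normalized count per kilobase of transcript and per 1000000 of the table's summed mean normalized counts, from the authors' deposited tables in the order HCD-weaned males, HCD-weaned females, RD-weaned males and RD-weaned females. Gstm5, a mu class gene of brain and testis, had levels of 444, 498, 382 and 469. Gstm1, a widely expressed mu class gene, had levels of 270, 288, 255 and 256. Gstp1 came next in each table, with levels of 144, 131, 104 and 99.6. These 3 genes and Gsta4 held the leading places of the family in every table, always in this order.

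Gsta4, the alpha class enzyme that conjugates the lipid peroxidation product 4-hydroxynonenal, had levels between 76.8 and 102. A middle group followed, whose order changed between tables. Gstm7 (mu class) had levels of 42.6 to 48.5 and Gstz1, the maleylacetoacetate isomerase of tyrosine breakdown, of 35.9 to 52.7. Gsto1, an omega class enzyme with thioltransferase and dehydroascorbate reductase activity, had levels of 31.6 to 41.8. Gstk1, the kappa class enzyme of mitochondria and peroxisomes, had levels of 18.5 to 43.7, and the theta class Gstt1 of 23.8 to 35.9. Gstp2 was last in every table, with levels of 0.290 to 4.25.

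Together Gstm1 and Gstm5 made up 62.8%, 63.9%, 65.3% and 65.4% of the summed level of the 10 genes in the authors' deposited tables, in the same order of comparisons. Gstp1 made up 12.6%, 10.7%, 10.6% and 8.99%. The mean normalized count of Gstp1 was 184, 192, 25.2 and 354 times that of Gstp2. Gstp2 itself had mean normalized counts of 17.3, 12.8, 52.1 and 5.44. The RD-weaned males thus had the highest Gstp2 mean and the lowest Gstp1 mean, at 1312 mean normalized counts against 1927 to 3175 in the other tables. Gstp2 has no p-value in RD-weaned males, and how evenly the libraries contribute to its mean of 52.1 is not known. The tables were normalized separately and hold no spread over libraries, so neither the order of neighbouring genes nor a difference in level between tables was tested.

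**Figure D1:**
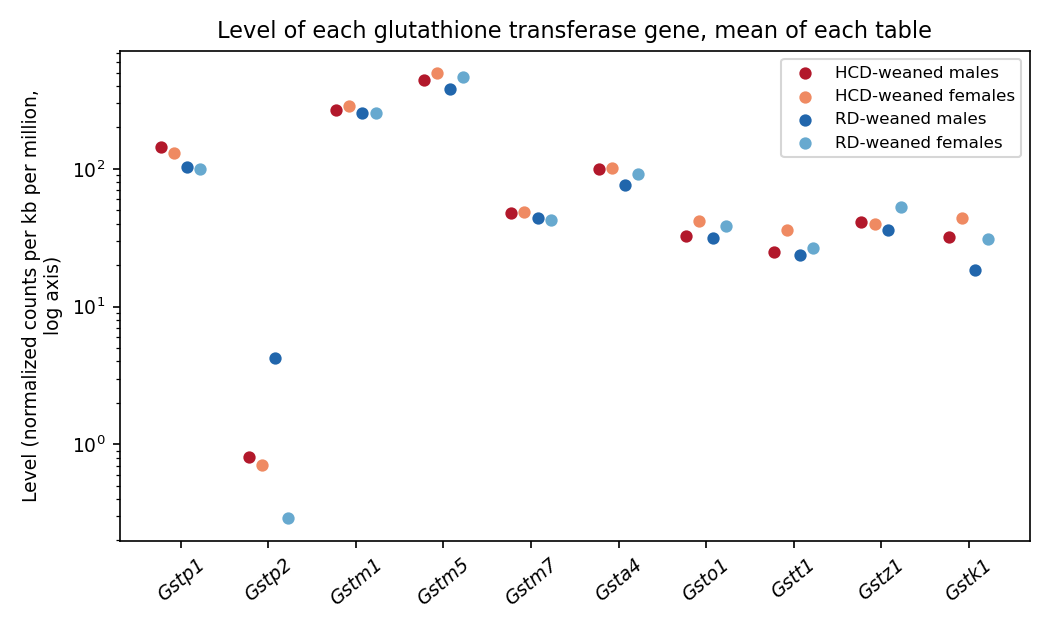
Levels of the 10 glutathione transferase genes in each comparison, as mean normalized count per kilobase of transcript and per 1000000 of the table's sum on a log axis, each point the mean over all libraries of a deposited table, with no error bars since the tables give none. Gstm5, Gstm1, Gstp1 and Gsta4 keep the first places in all 4 tables, and Gstp2 lies between 0.290 and 4.25, far below the others.

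In HCD-weaned males, Gstp1 was higher in HCD-HCD than in RD-HCD animals, and most of the family had a positive fold change of smaller size. Gstp1 had a log2 fold change of 1.06 ± 0.25 (SE; n = 3 and 3; interval 0.58 to 1.54), a 2.08-fold difference. The authors' deposited DESeq table gives it an adjusted p of 0.0181. This is one of the values that chose the members. Just inside the threshold on the positive side of that table lay Gabra6 (adjusted p = 0.0393), and just outside it Gng8 (adjusted p = 0.0575).

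For the near-copy Gstp2 the authors' deposited table of HCD-weaned males gives a log2 fold change of 0.34 ± 0.32 (SE). Of the mu class, Gstm7 had 0.56 ± 0.26 (interval 0.05 to 1.06), Gstm1 0.32 ± 0.24 and Gstm5 0.32 ± 0.27 there. Gstk1 (0.43 ± 0.28), Gsta4 (0.42 ± 0.28) and Gstt1 (0.40 ± 0.27) were of about the same size in that deposited table. The exceptions were Gsto1 at -0.13 ± 0.27 and Gstz1 at -0.02 ± 0.26. So 8 of 10 members had a positive log2 fold change, with a median of 0.37, where 48.9% of all genes tested were positive with a median of -0.01.

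Of the 10 members, 1 was called in the authors' deposited DESeq table of HCD-weaned males, Gstp1 itself, where 0.163% of 15384 genes tested were called. At an unadjusted p under 0.05 the number was 2, Gstp1 and Gstm7, where 8.14% of all genes passed. The intervals of 8 of 10 members included 0. The lowest adjusted p among the other 9 members was 0.556. Because the rule used this comparison, nothing is read from these counts. The call of Gstp1 was lost when the test statistic was divided by its robust spread over all genes (adjusted p = 0.232, computed from the authors' deposited DESeq values) and when a trend over transcript length and GC content was removed (adjusted p = 0.358).

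In HCD-weaned females, Gstp1 was again higher in HCD-HCD than in RD-HCD animals, with Gsta4 next in size. Gstp1 had a log2 fold change of 0.79 ± 0.23 (SE; n = 3 and 3; interval 0.35 to 1.24), a 1.73-fold difference. Its adjusted p is 0.0408 in the authors' deposited DESeq table. This is the other value that chose the members, and it lies close to the threshold. On the positive side, Trappc4 was the last gene inside (adjusted p = 0.04997) and Arl3 the first outside (adjusted p = 0.0502).

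Gsta4 had a log2 fold change of 0.63 ± 0.20 (SE; interval 0.23 to 1.03), a 1.55-fold difference. Its adjusted p, 0.0774 in the authors' deposited DESeq table of HCD-weaned females, missed the threshold. Gstm7 had 0.55 ± 0.30, Gstm1 0.37 ± 0.22 and Gstm5 0.22 ± 0.27 there, so the 3 mu class genes were positive in both sexes. Gstk1 had 0.33 ± 0.34 and Gstp2 0.24 ± 0.33 in that deposited table. On the negative side stood Gstt1 at -0.43 ± 0.41, Gsto1 at -0.30 ± 0.32 and Gstz1 at -0.26 ± 0.25. Between the sexes, 9 of the 10 members thus had the same sign, Gstt1 being the exception. How many of all genes kept their sign between these comparisons was not counted, so nothing is read from this number.

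In all, 7 of 10 members had a positive log2 fold change in HCD-weaned females, with a median of 0.28, where 54.4% of all genes tested were positive with a median of 0.04. In the authors' deposited DESeq table, 1 of 10 members was called, Gstp1, where 1.52% of 15043 genes tested were called. At an unadjusted p under 0.05 there were 2 members, Gstp1 and Gsta4, where 13.3% of all genes passed. The intervals of 8 members included 0. Here too the rule used the comparison, and nothing is read from the counts. The call of Gstp1 was lost under 4 alternatives computed from the authors' deposited DESeq values: with no filter on low values (adjusted p = 0.0516), with fold changes centred on their median (0.0604), with the robust spread (0.151) and with the trend removed (0.370).

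**Figure D2:**
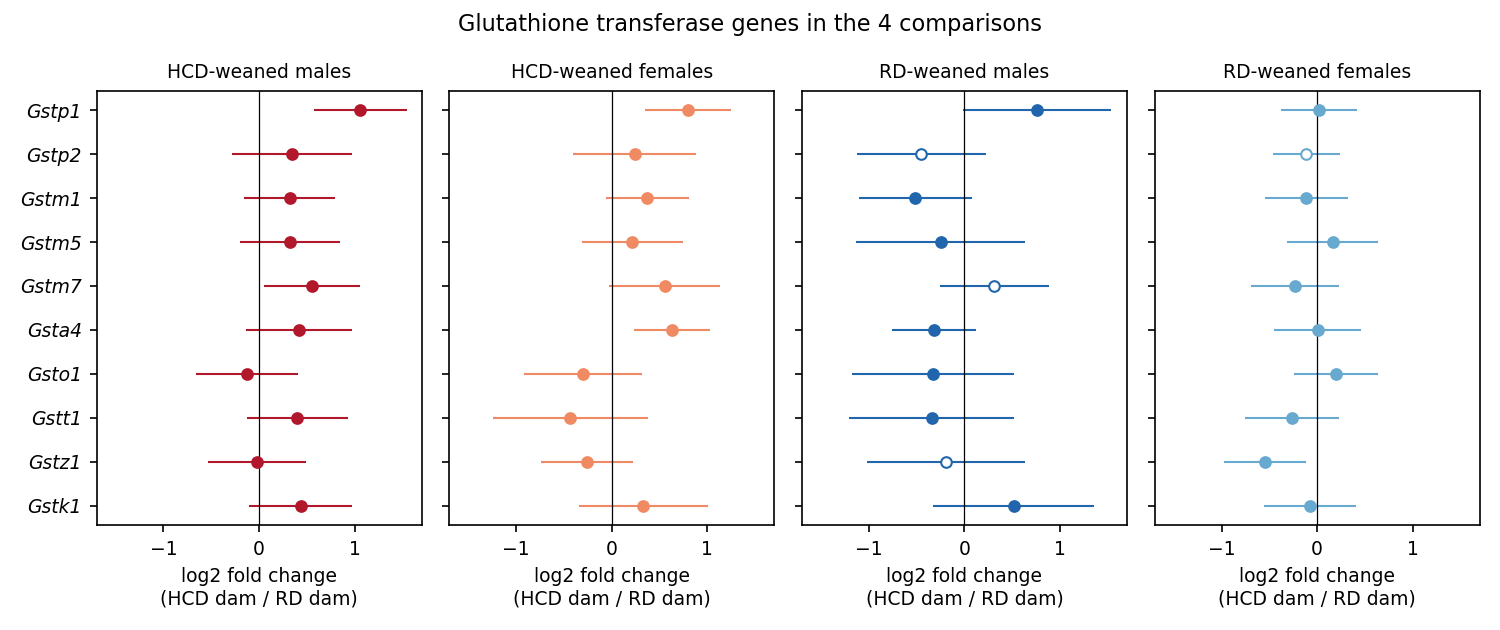
Log2 fold changes of the 10 glutathione transferase genes (offspring of HCD dams over offspring of RD dams) in the 4 deposited comparisons, with 95% intervals from the SE and open circles for genes with no adjusted p. Gstp1 lies above 0 with its whole interval in both HCD-weaned comparisons (1.06 and 0.79), while the interval of every member in RD-weaned males includes 0.

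The RD-weaned comparisons were not used to choose the members. In RD-weaned males no member was called, and the family did not share a direction with Gstp1. Gstp1 had a log2 fold change of 0.76 ± 0.40 (SE; interval -0.02 to 1.53) and an adjusted p that is 1.00 in the authors' deposited DESeq table. The labels list 3 and 4 samples for this comparison, but its library files hold 6 columns, so how many samples the value rests on is not known. In size the fold change is about that of HCD-weaned females, with a larger SE. Gstk1 (0.52 ± 0.43) and Gstm7 (0.31 ± 0.29) were also positive in that deposited table.

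The other 7 members had negative log2 fold changes in the authors' deposited table of RD-weaned males, none of them with an interval that excluded 0. Gstm1 had -0.51 ± 0.30 and Gstp2 -0.45 ± 0.34. Gstt1 (-0.34 ± 0.44), Gsto1 (-0.33 ± 0.43) and Gsta4 (-0.32 ± 0.22) were of like size, and Gstm5 (-0.25 ± 0.45) and Gstz1 (-0.20 ± 0.42) were smaller. The SE of 5 of the 10 members exceeded 0.40 in this table, so their intervals are wide. Gstp2, Gstm7 and Gstz1 are among 1554 genes of that table with an adequate count and no p-value. Why is not given, and single libraries could not be examined, so their values may rest on few libraries.

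Across the 10 members the median log2 fold change in RD-weaned males was -0.28 and 3 of 10 were positive, where about as many of all genes tested were positive (6462) as negative (6458). Of the 7 members with an adjusted p, 2 were positive, with a median of -0.32. Of these 7, 0 were called in the authors' deposited DESeq table, where 0.0851% of 12920 genes tested were called. At an unadjusted p under 0.05 the number was also 0, where 4.3% of all genes passed.

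In RD-weaned females no member was called either, and Gstp1 was near 0. Its log2 fold change was 0.02 ± 0.20 (SE; n = 3 and 3; interval -0.38 to 0.41) and its adjusted p 1.00 in the authors' deposited DESeq table. The interval's upper bound corresponds to a 1.33-fold difference. Gstz1 stood apart from the rest with -0.55 ± 0.22 (interval -0.98 to -0.11) and an adjusted p of 0.536 in that deposited DESeq table. As the tables were read, Gstz1 was negative and Gstp1 positive in all 4 comparisons, with intervals that include 0 in 3 of 4 for Gstz1 and in 2 of 4 for Gstp1. With the RD-weaned tables turned, neither would keep 1 sign in all 4.

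The other members lay closer to 0 in the authors' deposited table of RD-weaned females, from Gstt1 at -0.26 ± 0.25 to Gsto1 at 0.19 ± 0.22. Gstm5 had 0.16 ± 0.24, Gsta4 0.01 ± 0.23, Gstk1 -0.07 ± 0.25, Gstm1 -0.11 ± 0.22, Gstp2 -0.12 ± 0.18 and Gstm7 -0.23 ± 0.23 there. Gsta4 and Gstm7, which had been among the larger positive values in HCD-weaned offspring, were thus closer to 0. The median over the 10 members was -0.09 and 4 of 10 were positive, where 50.9% of all genes tested were positive with a median of 0.01. Of the 9 members with an adjusted p, 0 were called, where 0.346% of 15028 genes tested were called. At an unadjusted p under 0.05 there was 1, Gstz1, where 6.16% of all genes passed. Gstp2 had too low a mean normalized count (5.44) to be given an adjusted p in the deposited table.

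Whether a maternal diet difference itself changed with weaning diet or sex was asked by subtracting the log2 fold changes of 2 deposited tables, with the SE from both. For Gstp1 the difference between HCD-weaned and RD-weaned females was 0.78 (interval 0.18 to 1.37), and that between HCD-weaned and RD-weaned males was 0.30 (interval -0.61 to 1.21). With the sign of the RD-weaned table turned, these became 0.81 (interval 0.22 to 1.41) in females and 1.82 (interval 0.90 to 2.73) in males, so the value in males depends on the assumed direction. Gstp1 was chosen for its value in HCD-weaned offspring, so these are given with no p. HCD-weaned males minus HCD-weaned females gave 0.26 (interval -0.40 to 0.92) for Gstp1. RD-weaned males minus RD-weaned females, which the rule did not use, gave 0.74 (interval -0.13 to 1.61; p = 0.0958, adjusted p = 0.999 over 12636 genes, normal test on the authors' deposited DESeq values).

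Among the other 9 members no difference passed an adjusted p under 0.05 in any of these 4 subtractions. Between HCD-weaned and RD-weaned males, 0 of 6 members tested passed, where 0.00775% of all genes passed, and 2 of 6 had an unadjusted p under 0.05, where 3.84% of all genes did. These were Gstm1 (difference 0.83, interval 0.07 to 1.59) and Gsta4 (difference 0.73, interval 0.02 to 1.44). Between HCD-weaned and RD-weaned females, 0 of 8 passed, where 0.00685% of all genes passed, and 2 of 8 had an unadjusted p under 0.05, where 5% of all genes did. These were Gstm7 (difference 0.79, interval 0.05 to 1.53) and Gsta4 (difference 0.62, interval 0.02 to 1.23). With the RD-weaned tables turned, the males' differences became -0.19 for Gstm1 and 0.10 for Gsta4, and the females' became 0.32 for Gstm7 and 0.64 for Gsta4. No member passed the adjusted threshold in either reading.

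Between the sexes, differences were smaller relative to their errors. HCD-weaned males minus HCD-weaned females gave 0 of 9 members past the adjusted threshold, where 0% of all genes passed, and 0 of 9 with an unadjusted p under 0.05, where 0.642% of all genes did. Gstt1 had the largest difference there, 0.83 (SE 0.49), with an interval that includes 0. RD-weaned males minus RD-weaned females gave 0 of 6, where 0.00791% of all genes passed, and likewise 0 of 6 with an unadjusted p under 0.05, where 3.05% of all genes did. The intervals are wide, so these counts do not show that the sexes were alike.

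In both HCD-weaned tables the Wald statistic, the fold change divided by its SE, ran with transcript length over the whole transcriptome. Across genes, which are not independent replicates, Spearman's rho between the statistic and transcript length was -0.554 for HCD-weaned males and -0.451 for HCD-weaned females, against 0.0953 for RD-weaned males and -0.215 for RD-weaned females, over the 96.4% to 96.5% of tested genes whose symbol has a GENCODE transcript. The glutathione transferase transcripts are short, from 797 bases (Gstp2) to 1656 bases (Gstz1). A smooth trend of the statistic over length and GC content had a value of 1.10 at Gstp1's length and GC content in HCD-weaned males, where Gstp1 itself had 4.29. In HCD-weaned females the trend had 0.97 and Gstp1 3.47. In RD-weaned males the trend had -0.51 and Gstp1 1.91, and in RD-weaned females the trend had 0.12 and Gstp1 0.09.

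Less the trend, the statistic of Gstp1 was 3.19 for HCD-weaned males, 2.50 for HCD-weaned females, 2.43 for RD-weaned males and -0.03 for RD-weaned females. The value in RD-weaned males would be on the other side of 0 if that table's direction was read wrongly. Of the other 9 members, 7 stood above the trend in HCD-weaned males and 5 among HCD-weaned females. Among RD-weaned males 1 of 6 stood above it, and in RD-weaned females 2 of 8. The part of transcript length in the family's positive values was not tested.

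**Figure D3:**
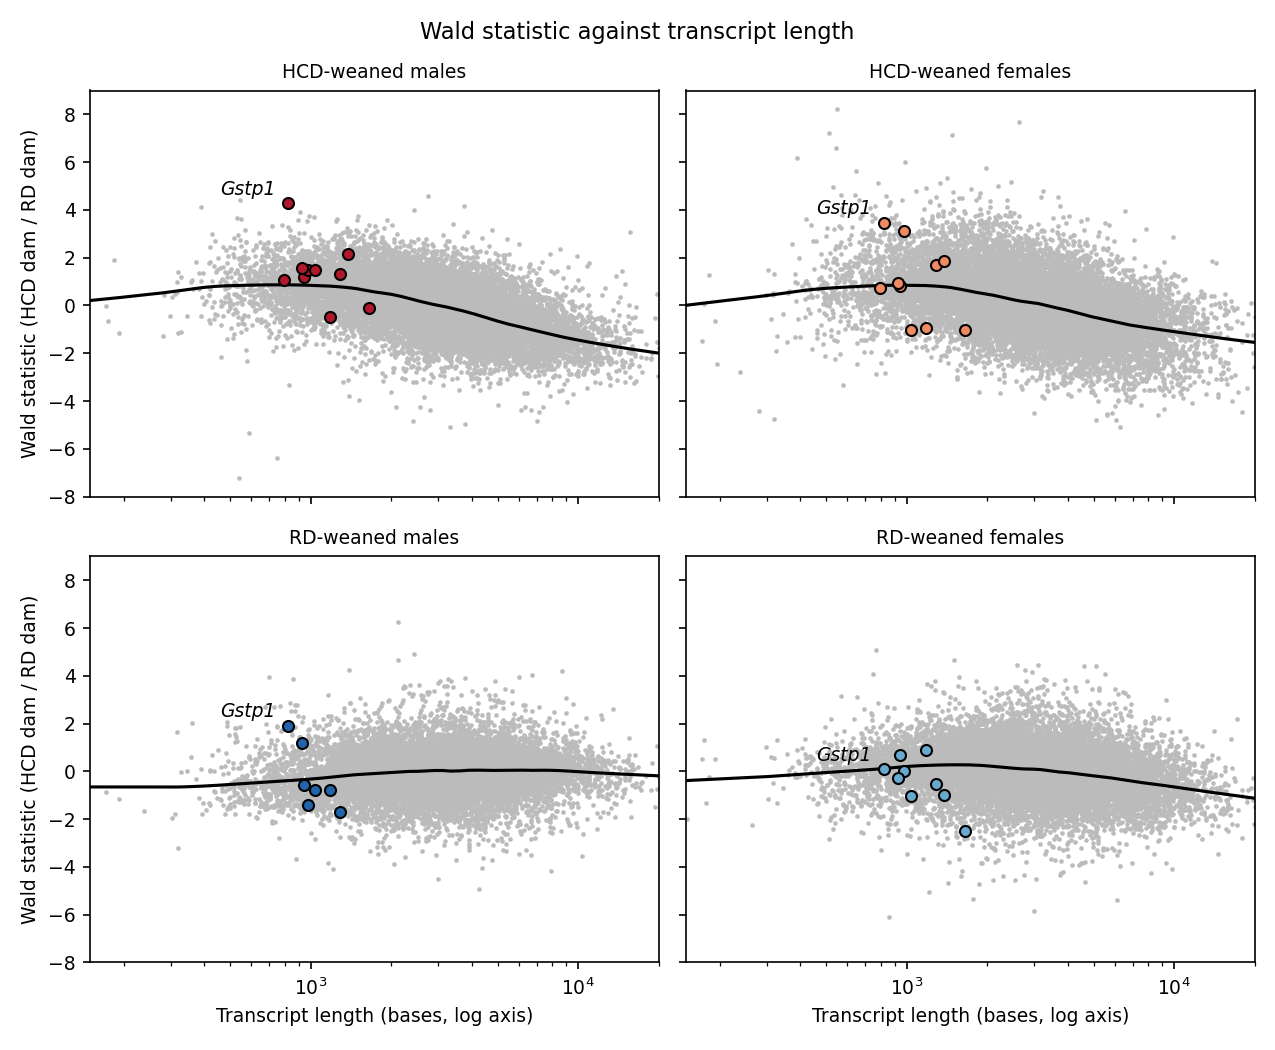
Wald statistic of the deposited tables against transcript length in bases (log axis), with all tested genes in grey, the 10 glutathione transferase genes in colour and a smooth line over length. The members sit at the short end, between 797 and 1656 bases, where the line lies above 0 in the HCD-weaned panels, and Gstp1 lies above that line in both of them, at 4.29 in males and 3.47 in females.

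Other cytosolic transferase genes and their relatives, 18 symbols in all, had members on both sides of 0 in every table. Those with a positive value in the authors' deposited tables were 7 of 13 tested for HCD-weaned males (median log2 fold change 0.09), 8 of 13 for HCD-weaned females (0.16), 6 of 12 for RD-weaned males (-0.07) and 4 of 13 for RD-weaned females (-0.07). None was called in any of the 4. Theta class Gstt3 had -1.09 ± 0.39 (SE) in RD-weaned males, and its adjusted p was 0.522 in the authors' deposited DESeq table. The mu class genes Gstm4 and Gstm6 had -0.45 ± 0.41 and -0.11 ± 0.36 in HCD-weaned females in that deposited table, so the mu class as a whole did not share one sign there.

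The membrane-bound transferases and their relatives form a separate family, here with 6 genes. All 6 had positive log2 fold changes in the authors' deposited tables of HCD-weaned males (median 0.19) and of HCD-weaned females (median 0.31), and none was called. Less the trend over length and GC content, 3 of 6 stood above 0 in HCD-weaned males and 4 of 6 in HCD-weaned females. Mgst3, an abundant microsomal member, had 0.51 ± 0.29 (SE) in HCD-weaned males and 0.74 ± 0.25 in HCD-weaned females in the deposited tables. In RD-weaned males 1 of 3 tested was positive, and in RD-weaned females 3 of 5.

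A further list held 29 genes that make, recycle or use glutathione. Gclc, the catalytic subunit of the rate-limiting ligase, had log2 fold changes of -0.38 ± 0.26 (SE) for HCD-weaned males, -0.94 ± 0.36 for HCD-weaned females, 0.46 ± 0.38 for RD-weaned males and -0.11 ± 0.20 for RD-weaned females in the authors' deposited tables. Gclm, the modifier subunit of that ligase, had -0.17 ± 0.26, -0.45 ± 0.31, 0.17 ± 0.43 and -0.11 ± 0.25 in the same order and tables. Gss, which completes the tripeptide, had 0.47 ± 0.29, 0.68 ± 0.30, 0.16 ± 0.44 and -0.06 ± 0.22 there. Gsr, which reduces oxidised glutathione, lay between -0.04 and 0.11. None of these was called. Of the list, 18 of 29 were positive in the authors' deposited table of HCD-weaned males (median 0.16), 18 of 29 in that of HCD-weaned females (0.24), 14 of 26 in that of RD-weaned males (0.07) and 18 of 29 in that of RD-weaned females (0.05). The single call of the list was in RD-weaned females, where the secreted peroxidase Gpx3 fell by 1.27 on the log2 scale (SE 0.29, adjusted p = 0.00867 in the authors' deposited DESeq table).

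A list of 27 targets of Nrf2 was mixed in direction. Of those tested, 16 of 26 were positive for HCD-weaned males (median 0.06), 17 of 26 for HCD-weaned females (0.18), 7 of 23 for RD-weaned males (-0.05) and 13 of 25 for RD-weaned females (0.01) in the authors' deposited tables. One was called, the pentose phosphate enzyme Tkt in HCD-weaned females, which rose by 0.79 ± 0.17 (SE; adjusted p = 0.00122 in the authors' deposited DESeq table). Tkt had 0.68 ± 0.25 in HCD-weaned males in the deposited table. The classical target Nqo1 had -0.18 ± 0.27 in HCD-weaned males and -0.05 ± 0.40 in HCD-weaned females in the deposited tables, and Hmox1 had 0.18 ± 0.28 and -0.08 ± 0.42 there.

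A list of thioredoxins, peroxiredoxins, superoxide dismutases, catalase and methionine sulfoxide reductases, 17 genes with their partners, was positive in 14 of 17 cases in each of the HCD-weaned tables deposited by the authors, with medians of 0.28 in males and 0.29 in females. Less the trend, 13 of 17 stood above 0 in males and 15 of 17 in females. In HCD-weaned females Sod1, the cytosolic superoxide dismutase, rose by 0.92 ± 0.20 (SE; adjusted p = 0.00202 in the authors' deposited DESeq table), the single call of the list. Sod1 had 0.79 ± 0.26 in HCD-weaned males in the deposited table. In RD-weaned males 7 of 16 were positive (median -0.07), and in RD-weaned females 12 of 17 (median 0.08). A list of 4 genes of tyrosine breakdown, the pathway of Gstz1, had 1 tested gene and gives no picture.

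**Figure D4:**
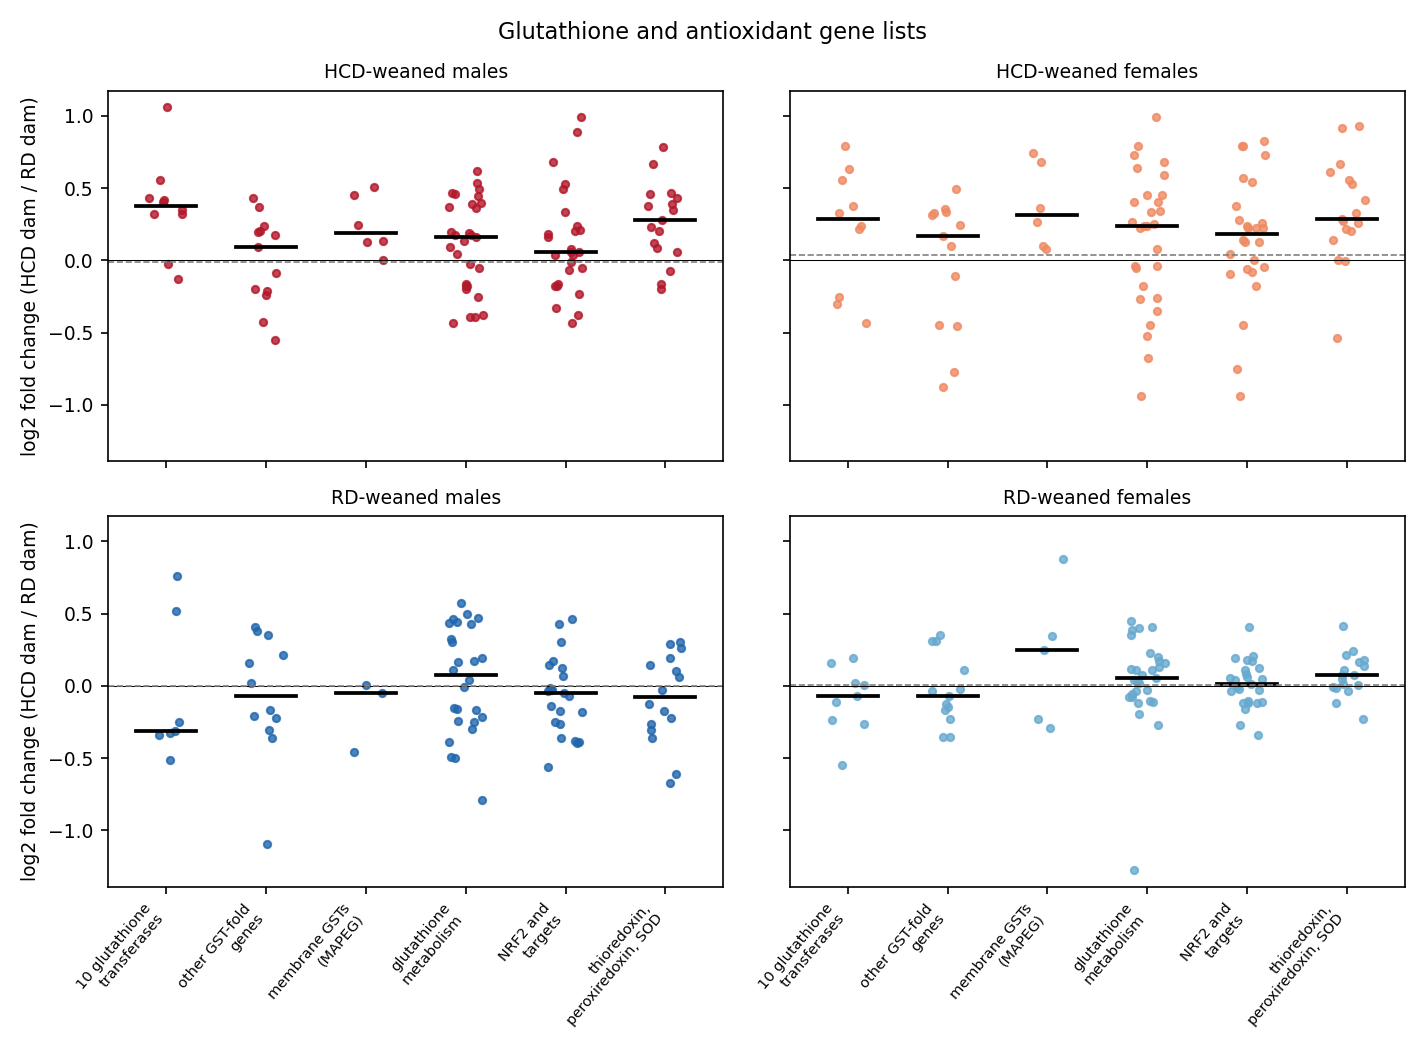
Log2 fold changes (offspring of HCD dams over offspring of RD dams) of the genes of each list with an adjusted p in the 4 deposited comparisons. Each point is a gene, the black bar the median of those shown and the dashed line the median of all genes tested. The medians of the thioredoxin list lie at 0.28 and 0.29 in the HCD-weaned comparisons and at -0.07 and 0.08 in the RD-weaned ones.

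In bulk tissue, fewer cells of a type and less RNA per cell cannot be told apart. Of 8 oligodendrocyte markers, 7 were positive for HCD-weaned males (median log2 fold change 0.27), 3 for HCD-weaned females (-0.12), 3 for RD-weaned males (-0.15) and 6 for RD-weaned females (0.24) in the authors' deposited tables, and 0 were called in any. The summed mean normalized count of the 8 markers was 522500, 438213, 327660 and 440769 in the 4 tables, with none at 0.

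Of 8 astrocyte markers, 4 were positive for HCD-weaned males (median 0.03), 3 for HCD-weaned females (-0.28), 1 for RD-weaned males (-0.27) and 1 for RD-weaned females (-0.19) in the authors' deposited tables. The water channel Aqp4 was the one called, with a fall of 1.25 on the log2 scale in HCD-weaned females (SE 0.33, adjusted p = 0.0229 in the authors' deposited DESeq table). The summed mean normalized count of the 8 markers was 160167, 126805, 93907 and 134052, with none at 0. All 10 markers of hypothalamic neurons were above 0 in every table, with sums of 9133, 8068, 3101 and 13026 mean normalized counts. Some lay close to 0, so a sum does not stand for each marker. In RD-weaned males Pmch alone had 1793, while Agrp had 1.54, Sim1 4.59, Oxt 13.9 and Avp 56.7. In the other tables Oxt had 453 to 1199 and Avp 803 to 1864. Agrp (9.44) and Sim1 (5.09) were also under 10 in HCD-weaned females. In HCD-weaned males 8 of these 10 markers were negative and 4 were called, in the direction of lower expression, in the authors' deposited DESeq table. Most tested were also negative elsewhere, 5 of 8 in HCD-weaned females, 4 of 5 in RD-weaned males and 8 of 9 in RD-weaned females (0 called). Of 6 general neuron markers, 4 were positive in HCD-weaned females (Tubb3 called) and 4 in RD-weaned males (Snap25 called). Of 5 precursor markers, 3 were positive in HCD-weaned females (Olig1 called). In RD-weaned females 6 of 6 microglia markers were positive (0 called). In HCD-weaned males 0 of 6 markers of meningeal fibroblasts were positive (1 called, Ogn) and 5 of 5 tested ependymal and tanycyte markers were positive (0 called). In RD-weaned females 5 of 5 choroid plexus markers were positive and 2, Kl and Kcnj13, were called in the authors' deposited DESeq table, with a median log2 fold change of 0.84. Their summed mean normalized count lay between 79808 and 119030 over the 4 tables. The summed count of the fibroblast markers lay between 1059 and 2101 and that of the ependymal markers between 3655 and 6866. No marker of the 3 lists was at 0, but the ependymal marker Rax had means of only 1.602 to 7.785. The part of cell composition and of dissection in the values of the transferase genes was not tested.

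The genes whose 4 log2 fold changes lay closest to those of Gstp1, by Euclidean distance over the 4 comparisons among 12603 genes with an adjusted p in all of them, were Polr2l (distance 0.258), Cebpb (0.268), Tuba1b (0.309), Ramp3 (0.374) and Pepd (0.405). Polr2l encodes an RNA polymerase subunit, Cebpb a bZIP transcription factor, Tuba1b an alpha tubulin, Ramp3 a receptor activity-modifying protein and Pepd a dipeptidase. Tuba1b had log2 fold changes of 0.90 ± 0.27 (SE) for HCD-weaned males, 0.92 ± 0.19 for HCD-weaned females, 0.52 ± 0.33 for RD-weaned males and 0.02 ± 0.25 for RD-weaned females in the authors' deposited tables. The authors' deposited DESeq table of HCD-weaned females gives Tuba1b an adjusted p of 0.000858 and Ramp3 one of 0.0492. No other value of the 5 genes was called. Gstm7, Gstp2 and Gstz1 could not be placed, since they lack an adjusted p in RD-weaned males. Gstm7 had log2 fold changes of 0.56, 0.55, 0.31 and -0.23 in the same order, so the closest member of the whole family is not given here. Of the 6 other members that could be placed, Gstk1 was nearest at rank 240 (distance 0.821). Gsta4 followed at rank 2436, Gstm5 at 3734, Gstm1 at 5493, Gstt1 at 8502 and Gsto1 at 9910 of the 12603 genes. In this measure the 6 placed members were thus spread widely over the genes compared.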

How the data were processed

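Members and gene lists were chosen with earlier results of these data known. Libraries came from a stranded mRNA kit, per the labels' protocols. DESeq (no version) and build mm10 are named in the submitters' processing notes; how reads were aligned and counted is not given in the sources used here. The authors' 4 comparison tables, of 12 files deposited, were used. They hold a mean normalized count (a signal averaged over libraries by the authors), a log2 fold change and its SE, a Wald score, and p-values, as deposited. Genes with a mean under 10 have the status Low and no adjusted p. The other 8 files hold counts and log2-scale values deposited in 48 library columns whose running numbers match no label, and were not used. For RD-weaned males these files have 6 library columns, where the labels list 7 samples. Depth per sample, per-library spread and the planned edgeR and DESeq2 fits are therefore not given. The labels name RD-dam groups as control for the HCD-weaned tables. For the RD-weaned tables they name no control, and the same order was assumed. If it is wrong, all signs of a table turn together. Whether fold changes were shrunken toward 0 is not stated. Over all genes the largest SE was 0.326, 0.447, 0.454 and 0.296 in the 4 comparisons, in the order used above. In HCD-weaned males Gsta1, with a mean of 0.163, had a log2 fold change of -0.053 ± 0.088 (SE), a smaller SE than Gstp1's 0.247. So the values of genes with few counts, such as Gstp2, look held toward 0.

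Computed here (Python 3.11.15, pandas 2.3.3, SciPy 1.17.1, statsmodels 0.14.6) were intervals at 95% from the SE and levels per kilobase from GENCODE M21 transcripts. Differences between tables were given a two-sided normal p, with Benjamini-Hochberg adjustment over all genes that have an adjusted p in both tables. Lowess trends had a span of 0.2. The difference test and the trend removal were tried on simulated data. All members were named. Of other genes, called genes of a list, up to 4 of a list by known role, and the 5 nearest to Gstp1 were named. Shared transcript stretches used 50-base windows. Promoters are RefSeq's (GRCm38.p6).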

Additional observations from a re-analysis of the deposited data

How the results depend on the processing

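Members called at an adjusted p under 0.05 numbered 1 in HCD-weaned males and 1 in HCD-weaned females, Gstp1 each time, and 0 in both RD-weaned comparisons. In males the number became 0 with the statistic divided by its robust spread (Gstp1 adjusted p = 0.232) and 0 with the length and GC trend removed (0.358). In females it became 0 with no filter on low values (0.0516), 0 with fold changes centred on their median (0.0604), 0 with the robust spread (0.151) and 0 with the trend removed (0.370), and 2, Gstp1 and Gsta4, at an adjusted p under 0.10. It stayed at 1 in both sexes when only genes with means from 100 up entered the adjustment. In RD-weaned offspring and in all differences it stayed at 0 under every alternative run. Signs turned with the trend removed for Gstp2 in HCD-weaned females (statistic -0.168) and for Gstp1 (-0.0315) and Gsta4 (-0.0609) in RD-weaned females. With the sign of the RD-weaned table turned, the difference between HCD-weaned and RD-weaned males was -0.192 for Gstm1 and 1.82 for Gstp1, against 0.83 and 0.30 as read. These differences of Gstp1 are given with no p, since it was chosen for its value in HCD-weaned offspring. For the same reason, its adjusted p under the alternatives describe how its call depends on the processing and are no test. The cause was not tested. Of 214 alternative values of members, 204 kept direction and side of the threshold. Direction could not change where only the threshold or the filter on counts was altered. The 6 values that lost a call were all of Gstp1 in the HCD-weaned comparisons.

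Over all genes, calls in HCD-weaned males numbered 25, against 3 with the robust spread and 16 with a mean of at least 100. In HCD-weaned females 229 became 450 at 0.10, 56 with the robust spread and 51 with the trend removed, and centring changed the split from 148 higher and 81 lower to 100 and 96. In RD-weaned males 11 became 23 at 0.10 and 74 with the robust spread, and in RD-weaned females 52 became 90 at 0.10. No paired analysis was possible because the library columns carry no sample or replicate label, and the edgeR and DESeq2 fits, leaving out replicates and the replicate block were not run for the same reason.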
